A study of Mus musculus with 108 samples.

Results

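The genes examined here are 39 enzymes that take apart amino acids or run the urea cycle. They were listed by gene name, with earlier results of these data known, and all 39 are among the 55416 genes of the deposited count table. By role they are 6 urea cycle genes, 2 genes of glutamine and glutamate use, 4 of tyrosine breakdown, 7 of tryptophan and lysine breakdown, 4 of serine and glycine use, 4 transaminases, 3 of proline breakdown, 4 of histidine breakdown and 5 of branched-chain amino acid breakdown.

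The study sequenced RNA of 3 organs, liver, kidney and white fat (white adipose tissue, WAT), of 2 kinds of male mice, strain C57BL/J, 8 to 12 weeks old, named Bmal1-flox and Bmal1-iKO. Bmal1 (Arntl in the count table) encodes a transcription factor of the circadian clock that binds E-boxes, DNA elements of the letters CACGTG. A floxed gene carries recombination sites and is left working until a recombinase meets it, so Bmal1-flox is the control and Bmal1-iKO the knockout. Neither the cells in which Bmal1 was deleted nor the promoter behind the deletion is named in the labels, and the series title names the intestinal clock and the metabolism of the liver. Mice lived under a light-dark cycle with free food and water and received no treatment. Organs were collected 2, 6, 10, 14, 18 and 22 h after the lights came on (zeitgeber time, ZT), with 3 libraries for each genotype, time and tissue, 36 libraries per tissue. The labels do not state that the 3 libraries of a group came from separate animals, so p-values measure the spread among these samples only, and that spread may be technical.

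Amino acids that are not used for protein lose their nitrogen, and the carbon skeletons enter energy metabolism or glucose synthesis. The nitrogen is passed by transaminases to glutamate and aspartate, or freed as ammonia, and periportal hepatocytes turn it into urea. Kidney makes arginine from citrulline with Ass1 and Asl but lacks the mitochondrial steps of the urea cycle, and adipose tissue is known for burning branched-chain amino acids. Feeding, glucocorticoids and glucagon are known to set the levels of many of these enzymes in liver, and their activity follows the time of day.

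Hal and Uroc1, the first enzymes of histidine breakdown, are called lower in Bmal1-iKO liver in a fit given below that leaves out libraries standing apart, and Gldc is the member called rhythmic in flox liver. For the 4 histidine enzymes and Gldc the 250 bases before their RefSeq start sites (GRCm38.p6) are therefore shown. Hal lies on chromosome 10 at chr10:93488518-93488767 (plus strand) for these bases, Amdhd1 at chr10:93540034-93540283 (minus strand), Ftcd at chr10:76575398-76575647 (plus strand), Uroc1 at chr6:90333039-90333288 (plus strand) and Gldc at chr19:30175442-30175691 (minus strand). In GENCODE M21 (GRCm38) the gene Hal spans chr10:93488768-93519304 and its neighbour Amdhd1 spans chr10:93523338-93540033, so that the first and the third enzyme of the pathway lie close together and are transcribed towards each other. Capitals mark matches, on either strand, to AGGTCA (the core of nuclear receptor sites) in Uroc1 and to TGACG (the core of cAMP response elements) in Ftcd.
Hal: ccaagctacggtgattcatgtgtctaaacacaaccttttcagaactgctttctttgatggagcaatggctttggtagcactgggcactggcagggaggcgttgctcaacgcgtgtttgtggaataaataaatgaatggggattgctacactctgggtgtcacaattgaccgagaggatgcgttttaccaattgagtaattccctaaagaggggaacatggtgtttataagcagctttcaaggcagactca
Uroc1: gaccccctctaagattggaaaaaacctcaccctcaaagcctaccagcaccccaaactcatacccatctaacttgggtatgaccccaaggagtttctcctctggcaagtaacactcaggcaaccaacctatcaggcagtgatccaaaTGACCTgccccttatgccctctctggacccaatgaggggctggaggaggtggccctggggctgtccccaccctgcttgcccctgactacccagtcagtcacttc
Amdhd1: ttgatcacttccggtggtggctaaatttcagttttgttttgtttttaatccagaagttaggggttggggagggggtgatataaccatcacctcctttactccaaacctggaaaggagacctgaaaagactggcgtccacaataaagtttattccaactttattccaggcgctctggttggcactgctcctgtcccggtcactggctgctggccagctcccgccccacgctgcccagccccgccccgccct
Ftcd: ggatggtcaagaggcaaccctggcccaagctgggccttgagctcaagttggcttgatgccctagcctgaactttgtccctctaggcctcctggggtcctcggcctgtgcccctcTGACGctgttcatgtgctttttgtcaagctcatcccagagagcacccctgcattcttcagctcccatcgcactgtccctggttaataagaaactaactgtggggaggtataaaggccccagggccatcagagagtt
Gldc: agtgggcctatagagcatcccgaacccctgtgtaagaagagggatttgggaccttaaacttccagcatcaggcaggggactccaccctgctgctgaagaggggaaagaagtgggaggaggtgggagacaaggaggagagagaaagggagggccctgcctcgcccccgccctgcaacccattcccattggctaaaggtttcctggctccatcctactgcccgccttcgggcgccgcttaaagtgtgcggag

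The search covered 300 bases, 250 before and 50 after each start site, and RefSeq promoters were matched by symbol for 30 of the 39 members (31 promoters, with 2 for Bckdhb). The E-box CACGTG stood in 1 of the 31 member promoters, that of Ass1, at position -36 from its start, against 7.15% of all 32851 promoters. AGGTCA stood in 10 of 31 (32.26%) against 16.26% of all, AGAACA (the core of glucocorticoid receptor sites) in 4 (12.9%) against 18.97%, and TGACG in 3 (9.677%) against 20.81%. Both strands were searched, AGGTCA read on its other strand begins with the 4 letters that also begin TGACG but no stretch can match both at once, and a match describes letters only.

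Some libraries stood apart before any member was tested. In liver, 11 of 36 libraries had a mean level of 20 cell cycle genes of 3.09 to 3.72 (log2 of CPM plus 0.5, where CPM is the count scaled to the library total), while the other 25 lay between 0.0981 and 1.35. The 11 are flox ZT6 number 1, flox ZT22 number 1, iKO ZT6 numbers 1 and 2, iKO ZT14 numbers 1 and 2, iKO ZT18 numbers 1 and 2, and all 3 iKO libraries of ZT22, so 2 flox and 9 iKO. They also had higher means of 12 macrophage markers (7.90 to 8.90 against 2.64 to 7.02) and of 18 interferon-stimulated genes (5.20 to 6.91 against 2.21 to 4.63), and lower means of 8 hepatocyte markers (median 11.8 against 12.9), 8 periportal genes (median 5.44 against 7.74) and 10 pericentral genes (median 6.06 against 7.74). In kidney the libraries with the same labels and numbers had interferon-stimulated means of 4.47 to 6.97 against 2.05 to 4.72 and a median of proximal tubule markers of 9.19 against 10.8. In 2 of them, iKO ZT18 number 1 and iKO ZT22 number 3, Xist, the RNA of the inactive X chromosome of female cells, exceeded a log2 CPM of 3 in liver although the labels give male mice. The genes encoded in mitochondria, often read as a sign of tissue and RNA quality, also separated in liver, with means of 7.06 to 8.95 in the 11 libraries against 9.19 to 12.7 in the other 25. Genotype and rhythm results below are given with all libraries, and the average effects, the counts at single times and the counts of rhythms also without the libraries of those 11 numbers in the tissue concerned, which leaves 16 flox and 9 iKO libraries, 1 iKO library at ZT6, ZT14 and ZT18 and none at ZT22. That choice was made after the data were seen. Average effects without those numbers cover 5 times, without ZT22, and each time has equal weight. The markers of hepatocytes, proximal tubule and adipocytes matched their tissues. The median CPM of Alb was 66849 in liver, that of the proximal tubule phosphate transporter Slc34a1 was 3686 in kidney, and that of Adipoq was 441 in WAT, and each of the last pair was at 0 in liver.

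Library totals ran from 14427900 to 23428500 counts in liver, 13875600 to 22123000 in kidney and 14103500 to 24414800 in WAT. The members took 1.26 to 2.88% of the counts in liver, 0.318 to 0.992% in kidney and 0.0717 to 0.249% in WAT. Arntl itself averaged 10.8 CPM in flox and 8.49 in iKO liver, 12.5 and 14.1 in kidney, and 13.96 and 12.7 in WAT, so counts over the whole gene do not check the genotype labels. In bulk tissue, fewer cells of a type and less RNA per cell cannot be told apart.

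Across tissues of flox mice, the urea cycle genes Cps1, Otc, Arg1 and Nags were near 0 outside liver, while Ass1 and Asl were also present in kidney. Levels between genes are compared per length as FPKM (reads scaled by gene length and library total), computed from the counts and the gene lengths of the deposited table, over 18 flox libraries per tissue. Ass1, which joins citrulline and aspartate, was the highest of the 39 in liver with 2226 ± 968 FPKM (SD, n = 18), and it was also the highest in kidney with 884 ± 301, against 9.05 ± 7.51 in WAT. Arg1, the arginase that frees urea, had 1254 ± 482 FPKM in liver and 0.0388 ± 0.0520 in kidney. Cps1, which makes carbamoyl phosphate from ammonia, had 568 ± 417 in liver and 0.0169 ± 0.0249 in kidney. Asl, which cleaves argininosuccinate, had 484 ± 139 in liver, 53.0 ± 17.4 in kidney and 9.62 ± 3.60 in WAT. Otc, which joins carbamoyl phosphate to ornithine, had 140 ± 56.6 FPKM in liver, and in kidney only 9 counts in all 36 libraries together, 31 of which were at 0. Nags, which makes the activator of Cps1, had 46.2 ± 18.4 FPKM in liver and 0.0214 ± 0.0369 in kidney.

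Of the 39 members, 32 had their highest mean in liver and 7 in kidney. For 19 of the 32 the lowest liver library lay above the highest library of the tissue ranked next, where 7.61% of the 7556 genes with their highest mean in liver separated in this way. None of the 7 kidney genes did, where 10.9% of the 5280 genes highest in kidney did. These were the aminotransferase Aadat (101 FPKM in kidney, 36.1 in liver), the lysine enzyme Aass (104 and 77.8), the proline enzyme Aldh4a1 (50.8 and 43.0), the dehydrogenase subunits Bckdha (35.0 and 18.5) and Dbt (35.9 and 28.2), the leucine enzyme Ivd (91.5 and 52.8) and Mccc1, a subunit of the leucine pathway's carboxylase (13.2 in kidney, 4.72 in WAT, 4.63 in liver). Of the branched-chain genes Bckdhb had its highest mean in liver, with 73.8 FPKM, against 22.8 in kidney.

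**Figure D1:**
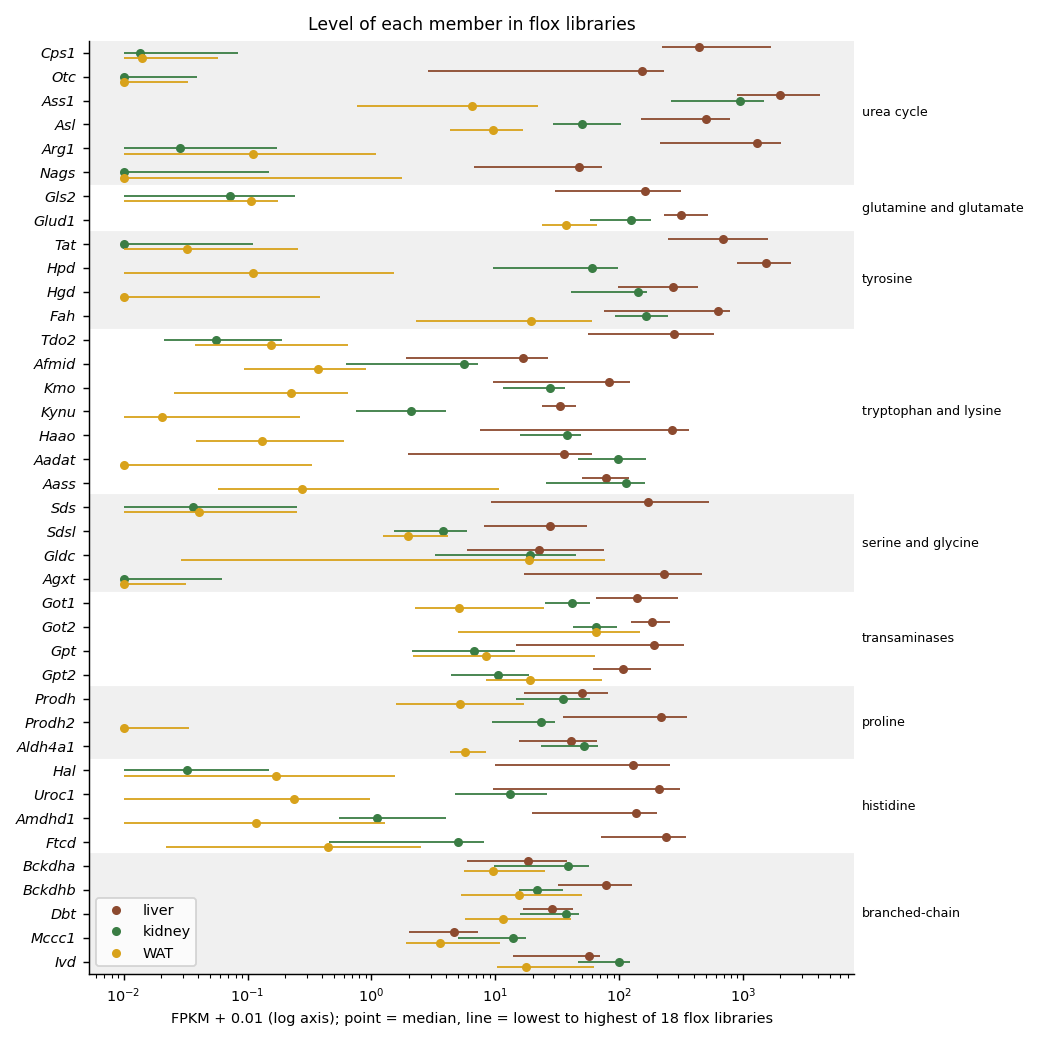
Levels of the 39 members in FPKM plus 0.01 (log axis) in 3 tissues of flox mice. Points are medians and lines run from the lowest to the highest of 18 libraries. The urea cycle genes Cps1, Otc, Arg1 and Nags are near 0 outside liver, while Ass1 is the highest member in liver and in kidney.

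The difference between tissues was tested in 1 fit of the libraries of all 3 tissues with edgeR's quasi-likelihood test, in which 22789 genes were tested and a gene was called at a Benjamini-Hochberg adjusted p under 0.05 over all of them. Between liver and kidney 35 members were called, 31 higher in liver and 4 in kidney, where 28.5% of all genes tested were called higher in liver and 34.0% higher in kidney. The median member difference, liver minus kidney, was 2.86 (log2), against -0.06 over all genes. The labels do not say whether a library number marks the same mouse in the 3 tissues, and the fit treats all libraries as independent. The 4 higher in kidney were Mccc1 (log2 difference -1.50), Aadat (-1.48), Bckdha (-0.92) and Ivd (-0.77). Without the libraries numbered 1 in every group, Ivd differed by -0.66 and lost its call (adjusted p = 0.0519 by edgeR). The largest differences the other way were those of Tat (the first enzyme of tyrosine breakdown), Otc, Cps1, Agxt (which clears glyoxylate) and Arg1, fitted at 15.2 to 16.5, values that rest on a handful of kidney reads and set no bound.

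Between liver and WAT 37 members were called, all higher in liver, where 29.1% of genes were called higher in liver and 45.2% higher in WAT. The median member difference, liver minus WAT, was 8.06 against -0.40 over all genes. The 2 not called were Mccc1 (-0.01) and Gldc (0.49), the decarboxylase of the glycine cleavage system. Gldc had similar means in all 3 tissues, with 29.0 ± 18.7 FPKM in liver, 19.2 ± 10.6 in kidney and 22.4 ± 21.9 in WAT, and its libraries overlapped throughout. The largest differences from WAT were those of Prodh2 (hydroxyproline dehydrogenase), Otc, Cps1, Agxt and Tat, again against a few reads in WAT.

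Between kidney and WAT 30 members were called, 24 higher in kidney and 6 higher in WAT, with 25.1% and 38.4% of all genes as background, and the median member difference was 1.55 against -0.26. The largest in favour of kidney were Hgd (12.81) and Hpd (7.69) of tyrosine breakdown, Prodh2 (12.43), Aadat (11.76) and Haao (7.85), the dioxygenase that acts on 3-hydroxyanthranilate. Those most in favour of WAT were Nags (-3.52), Hal (-3.39), Arg1 (-2.02), Tdo2 (-1.55) and Gpt2 (-1.50). Of these, only Gpt2, the mitochondrial alanine transaminase, was above 1 FPKM in WAT (28.4 ± 19.4, against 10.3 ± 4.33 in kidney), and the calls of Nags, Arg1 and Tdo2 were lost when the libraries of 1 number were left out (any of the 3 numbers for Nags, number 2 for Arg1 and number 3 for Tdo2). WAT libraries varied widely for most members, and the means of 8 hepatocyte markers in WAT ran from 0.0410 to 4.73 (log2 of CPM plus 0.5). The part of this in the low WAT levels was not tested.

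The question for liver was how the enzymes differed between Bmal1-iKO and Bmal1-flox over the day. Averaged over the 6 times, 2 members were lower in iKO, Arg1 and the liver glutaminase Gls2, and no member was higher. Arg1 fell by 1.07 (log2, SE 0.29, adjusted p = 0.0461 by edgeR's quasi-likelihood test, 18 libraries a genotype), and Gls2 fell by 0.97 (SE 0.27, adjusted p = 0.0468). Of the 16582 genes tested in liver 2.64% were called, and 1.56% were called lower in iKO. The 39 members leaned the same way, with 32 of 39 differences below 0 and a median of -0.38 against 0.00 over all genes. At an unadjusted p under 0.05 stood 12 members, all lower in iKO, which is 30.8% of the members against 24.6% of all genes.

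Arg1 had 293, 1919 and 3036 CPM (lowest, median and highest) in flox liver and 242, 710 and 2500 in iKO liver. The 2 lowest flox libraries were the 2 that stood apart, with 293 and 307 CPM, and the other 16 lay between 1300 and 3036. In iKO the 9 libraries that stood apart had 242 to 1033 CPM and the other 9 had 629 to 2500, so the genotypes overlapped. Gls2, which frees ammonia from glutamine beside the urea cycle, had 65.8, 371 and 725 CPM in flox and 62.1, 166 and 462 in iKO. Its 2 flox libraries that stood apart had 65.8 and 79.0 CPM against 300.2 to 725 in the others. The span of Gls2 overlaps Spryd4 on the opposite strand (median 25.5 CPM in liver), and the strand setting of the counting is not given in the sources used here.

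Both calls were fragile. With 1 library left out at a time, edgeR still called Arg1 in 6 of 36 fits (adjusted p from 0.00561 to 0.0925). Gls2 was called in 8 of 36 (0.00658 to 0.0958). The number of members called ranged from 0 to 13, the 13 without iKO ZT18 number 3. The share of all genes called in those fits is not given, so these numbers are no result about the members. Arg1 kept its call without flox ZT6 number 1, flox ZT22 number 1, iKO ZT6 numbers 1 or 3, iKO ZT14 number 3 or iKO ZT18 number 3. Gls2 kept it without flox ZT6 number 1, flox ZT22 number 1, iKO ZT2 number 2, iKO ZT6 number 3, iKO ZT10 number 3, iKO ZT14 number 3, iKO ZT18 number 3 or iKO ZT22 number 3. Each of the other libraries, left out alone, ended the call.

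Leaving out the 11 numbers, and with them ZT22, changed which members were called. That average covers 5 times of equal weight, of which ZT6, ZT14 and ZT18 rest on 1 iKO library each. Then 7 were called where 7.44% of all genes were, 6 lower in iKO (4.05% of genes) and 1 higher (3.39%). Hal, the histidase that opens histidine breakdown, fell by 0.91 (SE 0.16, adjusted p = 0.000782 by edgeR). Arg1 fell by 0.76 (SE 0.14, adjusted p = 0.00152 by edgeR), Haao by 0.50, Uroc1 (urocanase, the step after Hal) by 0.56, Gls2 by 0.62 and Mccc1 by 0.43. Aadat was the 1 member that was higher, by 0.39 (SE 0.11, adjusted p = 0.0313 by edgeR), whereas with all libraries its difference was -0.31 and not called. The median member difference shrank to -0.14, with 27 of 39 below 0. Without the 2 numbers with Xist no member was called by edgeR (1.21% of genes were), 10 members had an unadjusted p under 0.05 and Arg1 stood at -0.97 (adjusted p = 0.105). That fit was not run in DESeq2.

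Most members were low in the liver libraries that stood apart, whichever genotype they carried. In flox, 28 of 39 members were lower in both of those libraries than in every one of the other 16, where 20.8% of all genes tested were. In iKO, 9 of 39 were lower in all 9 than in the other 9, where 8.98% of all genes were. Haao had 21.95 and 31.8 CPM in the 2 flox libraries against 622 to 1152 in the other 16, and 31.2 to 280 in the 9 iKO libraries against 522 to 803. Cps1 was the single member that went fully the other way in both genotypes, where 24.5% of all genes in flox and 11.5% in iKO did. It had 5223 and 5796 CPM in the 2 flox libraries against 836 to 2925 in the other 16, and 1952 to 7282 in the 9 iKO libraries against 518 to 1943 in the other 9. The low hepatocyte, periportal, pericentral and mitochondrially encoded means and the high macrophage, cell cycle and interferon means named above move with these values, and their part in the genotype difference was not tested. The values without these libraries are those of the preceding paragraph.

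**Figure D2:**
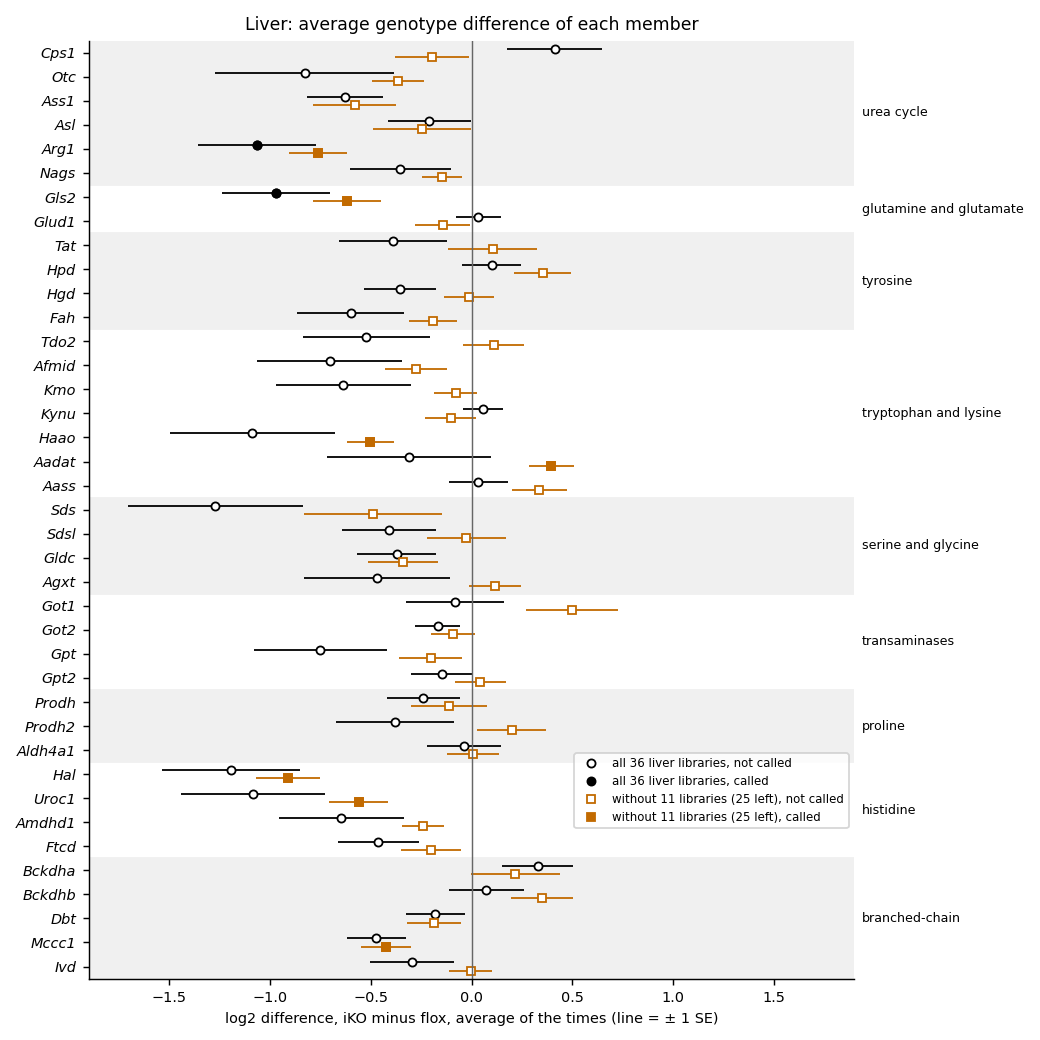
Difference in liver, iKO minus flox averaged over times (log2, with 1 SE), for the 39 members. Black circles use all 36 libraries at 6 times, orange squares the 25 at 5 times left without the 11 numbers. Filled symbols passed the adjusted threshold. With all libraries Arg1 and Gls2 are filled, and without the 11 numbers Hal, Arg1, Haao, Uroc1, Gls2, Mccc1 and, to the right of 0, Aadat.

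Of the 4 histidine enzymes none passed the adjusted threshold in liver with all libraries. All 4 had an unadjusted p under 0.05, as did 24.6% of all genes, and this became 3 of 4 without the 11 numbers (20.9% of genes) and 2 of 4 without the numbers with Xist (19.7%). Hal differed by -1.19 (adjusted p = 0.0569 by edgeR), Uroc1 by -1.09 (0.0846), Amdhd1 (imidazolonepropionase) by -0.65 (0.196) and Ftcd (which passes the formimino group to folate) by -0.46 (0.159). Hal had 34.3, 479 and 962 CPM in flox and 13.3, 217 and 553 in iKO. Among the libraries that did not stand apart, Hal lay between 442 and 962 CPM in 16 flox and between 124 and 553 in 9 iKO, and Uroc1 between 292 and 726 in flox and 199 and 387 in iKO. For Hal, 8 of the 9 iKO libraries were below the lowest of the 16 flox libraries, the exception being iKO ZT18 number 3 with 553 CPM. Amdhd1 and Ftcd overlapped widely there, with differences of -0.24 and -0.20 that were not called.

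Within the urea cycle 5 of 6 differences were below 0 with all libraries and all 6 without the 11 numbers. Ass1 differed by -0.63 (adjusted p = 0.0651 by edgeR) and Otc by -0.83 (0.242), and without the 11 numbers by -0.58 and -0.37, also not called, while Cps1 stood at 0.41 (0.275) with all libraries and at -0.20 without the 11 numbers. Of the 2 glutamine and glutamate genes, Glud1, the glutamate dehydrogenase, differed by 0.03, and by -0.14 without the 11 numbers. Of the tyrosine genes Fah differed by -0.60, Tat by -0.39, Hgd by -0.36 and Hpd by 0.10, and none was called. With the 11 numbers left out these stood at -0.19, 0.10, -0.01 and 0.35, again with no call. In tryptophan and lysine breakdown Haao differed by -1.09 (adjusted p = 0.114 by edgeR), Afmid by -0.70, Kmo by -0.64 and Tdo2 by -0.52. With the 11 numbers left out the same 4 stood at -0.50, -0.28, -0.08 and 0.11, and only Haao was called. Kmo (median 259 CPM in flox and 177 in iKO liver) overlaps Fh1 on the opposite strand (median 258 CPM in liver). Afmid overlaps Tk1, so the counts of Kmo and Afmid may hold reads of those neighbours.

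Sds, the serine dehydratase of gluconeogenesis, had the largest difference of all members in liver, -1.27, but was not called (adjusted p = 0.0902 by edgeR). Sds stood, without the 11 numbers, at -0.49 (adjusted p = 0.457 by edgeR), and the largest difference was that of Hal. The alanine transaminase Gpt differed by -0.75 (0.162), and by -0.20 without the 11 numbers. Got1, Got2 and Gpt2 lay between -0.17 and -0.08 with all libraries, and without the 11 numbers Got1 stood at 0.50, Got2 at -0.09 and Gpt2 at 0.04. The 3 proline genes lay between -0.38 and -0.04, and between -0.11 and 0.20 without the 11 numbers. In all, 11 of 39 members changed sign between these 2 fits, which average over unlike sets of times (6 and 5). Among the branched-chain genes Mccc1 differed by -0.47 (0.0694) and Bckdha by 0.33. Mccc1 had 13.5 to 53.4 CPM in flox and 16.2 to 35.0 in iKO liver, so its groups overlapped.

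DESeq2 on the same counts called 8 members lower in iKO liver, Arg1, Gls2, Hal, Ass1, Uroc1, Sds, Mccc1 and Haao, where it called 4.58% of all genes lower. Later DESeq2 counts of members stand without the share of all genes it called, so they describe that fit and not the members. The edgeR shares beside them do not apply to DESeq2. The 10 members with the smallest p kept the sign of their difference in all 43 alternative fits. They were picked by p in the same libraries, and 36 of these fits leave out only 1 library, so kept signs are weak support.

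**Figure D3:**
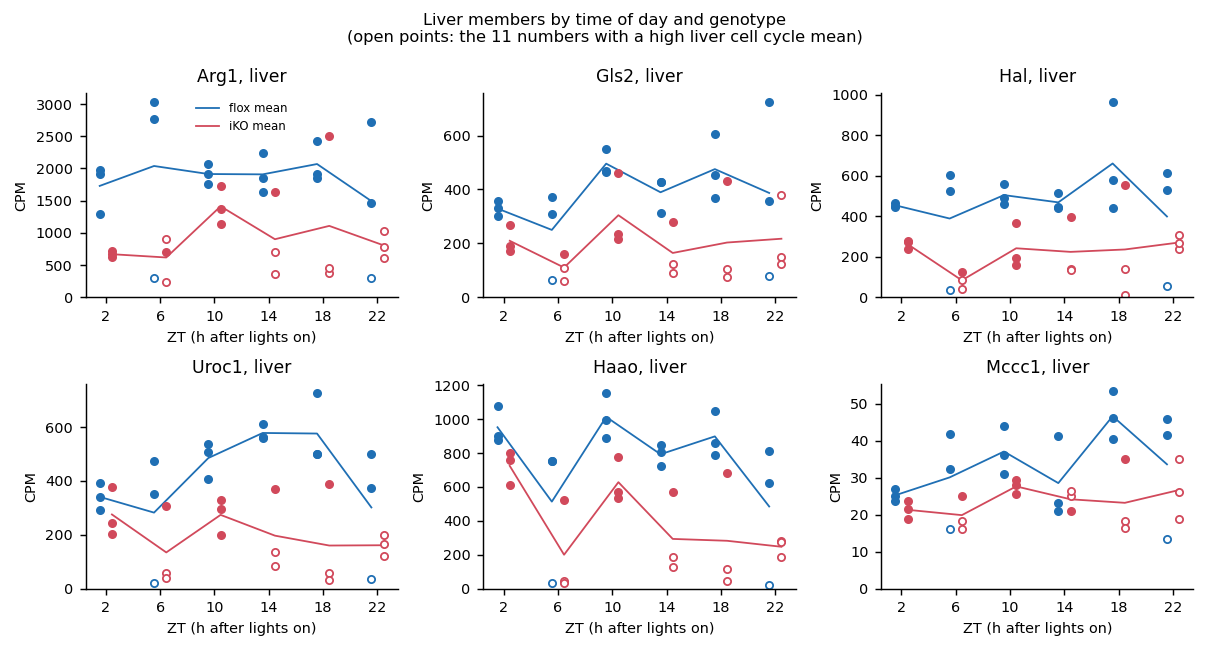
CPM of Arg1, Gls2, Hal, Uroc1, Haao and Mccc1 in each liver library by zeitgeber time, with lines through the group means of flox and iKO. Open points are the 11 libraries that stood apart. At ZT2, where no library stood apart, the 3 iKO points of Arg1 lie between 629 and 712 CPM, below the 3 flox points at 1300 to 1970. Over all times the filled points of Arg1 overlap, at 1300 to 3036 CPM in flox and 629 to 2500 in iKO.

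At single times no member was called in liver by edgeR, 0 of 234 member and time pairs, where 0.00603% of all gene and time pairs were called. An unadjusted p under 0.05 was reached by 9 pairs, 3.85% of them against 9.51% of all gene and time pairs, and DESeq2 called 1. In the fit without the 11 numbers 32 of 195 pairs reached it, 16.4% against 10.8% of all pairs. With all libraries the smallest p belonged to Gldc at ZT18 (-1.45, adjusted p = 0.114 by edgeR) and Cps1 at ZT14 (1.67, 0.193). The others of the first 4 were Mccc1 at ZT18 (-1.01, 0.128) and Got1, the cytosolic aspartate transaminase, at ZT22 (-1.59, 1). At ZT14, ZT18 and ZT22 most or all iKO libraries stood apart. Without the 11 numbers Arg1 was called at ZT2, where 0.169% of genes were, at -1.38 (SE 0.24, adjusted p = 0.0155 by edgeR). All 6 libraries of ZT2 are the same in both fits. There Arg1 had 1970, 1300 and 1920 CPM in the 3 flox libraries and 712, 668 and 629 in the 3 iKO libraries, which do not overlap. The share of all genes separating in this way is not given. Over all times Arg1 overlapped among libraries that did not stand apart, with 1300 to 3036 CPM in 16 flox and 629 to 2500 in 9 iKO. The interaction of genotype with time called 0 members in liver by edgeR, 0% of all genes, no member had an unadjusted p under 0.05, and in DESeq2 0 members were called. Left without the 11 numbers, it called 0 members by edgeR and 1 by DESeq2, and 8 members had an unadjusted p under 0.05. With all libraries the smallest p belonged to Got1 (0.0609 unadjusted), Cps1 (0.164), Gldc (0.260) and Tat (0.357).

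A daily rhythm was tested as a cosine of 24 h in each genotype, whose amplitude is the log2 distance from the mean to the peak. In flox liver Gldc was the 1 member called, where 0.772% of genes were, with an amplitude of 1.05 (SE 0.21), a peak at ZT 16.8 and an adjusted p of 0.0192 by edgeR. Its flox libraries had 44.9 to 65.2 CPM at ZT2 and 187 to 309 CPM at ZT18. These are values the fit already used, so the gap adds no support for the rhythm. The call was lost without flox ZT18 number 1 or number 2. Next by p came Ass1 (amplitude 0.55, peak ZT 16.3), Gpt2 (0.42, ZT 9.17), Kynu (0.24, ZT 20.3), Nags (0.54, ZT 15.3), Prodh (0.39, ZT 11.9), Bckdha (0.39, ZT 18.9) and Bckdhb (0.33, ZT 7.91), none of them called. Fitted peaks of 21 of the 39 members fell between ZT12 and ZT18 in flox and 17 of 39 in iKO, whether or not a rhythm was called. Most of these members had no called rhythm and the share over all genes is not given, so the peaks describe fitted curves only.

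In iKO liver 0 members were called by edgeR, where 0.0844% of genes were, and DESeq2 picked out 1. An unadjusted p under 0.05 was reached by 8 members, and the share of all genes at that threshold is not given. These 8 were Kynu (amplitude 0.46, adjusted p = 0.131), Got1 (0.90, 0.257), Gldc (0.75, 0.257), Aass (0.46, 0.303), Hpd (0.46, 0.333), Ass1 (0.58, 0.356), Dbt (0.44, 0.365) and Bckdhb (0.48, 0.388). Gldc peaked at ZT 17.1 in iKO and at ZT 16.8 in flox. The difference in rhythm between genotypes called 0 members by edgeR (0% of genes) and by DESeq2, with Got1 alone at an unadjusted p under 0.05 (0.0353, adjusted 0.832). Tat, Ftcd and Aass followed at unadjusted p of 0.118, 0.142 and 0.177.

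Without the 11 numbers 6 members were called rhythmic in flox liver, Gldc, Nags, Agxt, Amdhd1, Uroc1 and Gpt2, where 8.41% of genes were. Likewise 6 were called in iKO liver, Arg1, Amdhd1, Gldc, Dbt, Aass and Hal, where 0.899% of genes were, from 9 iKO libraries at 5 times. Gldc and Amdhd1 were called in both genotypes. The difference in rhythm was again called for 0 members by edgeR, and 11 had an unadjusted p under 0.05, where 12.9% of genes had.

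**Figure D4:**
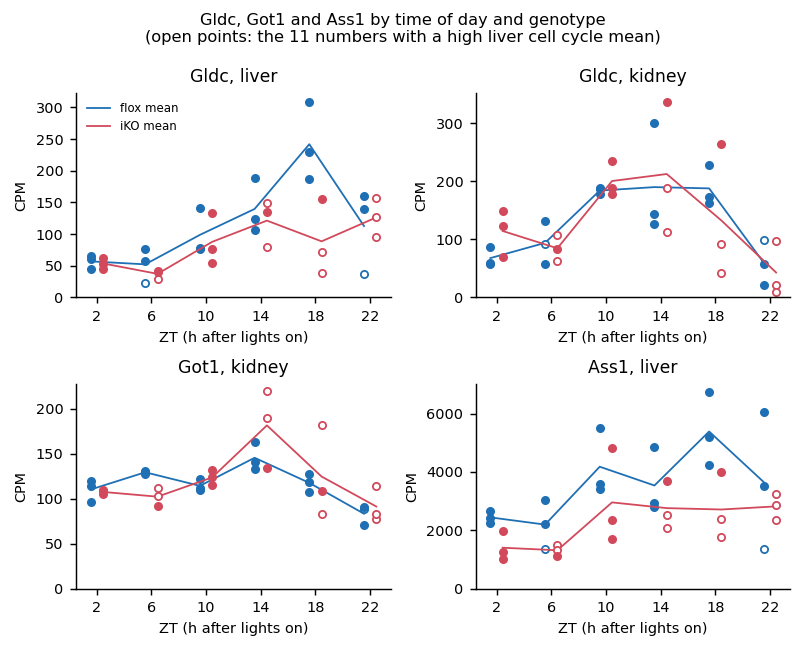
CPM by zeitgeber time in flox and iKO of Gldc in liver and kidney, Got1 in kidney and Ass1 in liver, each point a library, each line the group means and open points the libraries of the 11 numbers. In flox liver Gldc runs from 44.9 to 65.2 CPM at ZT2 to 187 to 309 at ZT18, and Got1 in iKO kidney is highest at ZT14.

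In kidney the member that differed between genotypes was Aadat, which turns kynurenine into kynurenic acid and acts on aminoadipate in lysine breakdown. It rose by 0.88 in iKO (log2, SE 0.16, adjusted p = 0.0191 by edgeR, 18 libraries a genotype), where 0.164% of the 17630 genes tested were called and 0.0737% were called higher. The test covered 33 members, since Otc, Arg1, Nags, Tat, Sds and Agxt had too few reads. The call held in all 36 fits with 1 library left out (adjusted p from 0.00221 to 0.0462). The members as a whole did not lean to a side in kidney, with a median difference of -0.03 against 0.00 over all genes and 20 of 33 below 0.

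Aadat had 111 to 406 CPM in flox kidney and 254 to 1406 in iKO kidney. The highest iKO libraries were ZT22 number 3 with 1406 CPM and ZT18 number 1 with 721 CPM, the 2 numbers with Xist, and the genotypes overlapped. Without those 2 numbers Aadat rose by 0.63 (adjusted p = 0.0104 by edgeR), where 0.136% of genes were called. Without the 11 numbers it stood at 0.52 and was not called (adjusted p = 0.0568), 0 members were called by edgeR (0.454% of genes were), 6 members had an unadjusted p under 0.05, and DESeq2 picked out 1. At ZT10, where no library stood apart, Aadat had 174, 229 and 244 CPM in flox and 360, 370 and 330 in iKO, which do not overlap. At ZT2 it had 346, 316 and 245 CPM in flox and 415, 396 and 383 in iKO, which do not overlap either. For both times the share of all genes separating in this way is not given. In liver, Aadat had 43.2 to 89.7 CPM in the 16 flox and 48.4 to 114 in the 9 iKO libraries that did not stand apart.

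Next by p in kidney came Amdhd1 (0.92, adjusted p = 0.0637 by edgeR), Ass1 (-0.50, 0.338) and Asl (-0.35, 0.352). Amdhd1 was low in kidney, with 1.47 to 10.8 CPM in flox and 2.38 to 17.2 in iKO, and DESeq2 called it (adjusted p = 0.00559). Ass1 had 690 to 4097 CPM in flox kidney and 486 to 3725 in iKO. The lower median of proximal tubule markers in the 11 kidney libraries (9.19 against 10.8) moves with these values, and its part was not tested. In the fit without the 11 numbers Ass1 differed by -0.19 and Asl by -0.30.

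**Figure D5:**
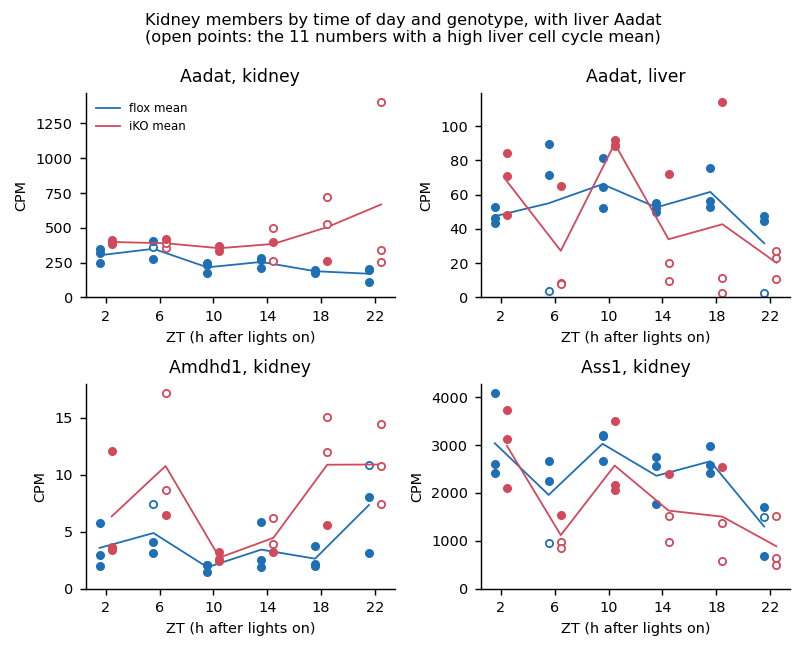
CPM by zeitgeber time in flox and iKO of Aadat in kidney and in liver and of Amdhd1 and Ass1 in kidney, each point a library, each line the group means and open points the libraries of the 11 numbers. Aadat in kidney is above the flox points in all 3 iKO libraries at ZT2 and ZT10, and iKO ZT22 number 3 reaches 1406 CPM.

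At single times 0 members were called in kidney by edgeR, where 0.00189% of gene and time pairs were, 13 of 198 pairs had an unadjusted p under 0.05 (6.57%, against 7.56% of all pairs), and DESeq2 picked out 3. No pair was called by edgeR or DESeq2 without the 11 numbers, and 7 of 165 pairs had an unadjusted p under 0.05 (4.24%, against 4.52%). With all libraries the smallest p belonged to Aadat at ZT22 (1.98, adjusted p = 0.180 by edgeR) and Bckdhb, a subunit of the branched-chain dehydrogenase, at ZT22 (0.81, 0.201). The others of the first 4 were Cps1 at ZT6 (5.73, 0.734, from a few reads) and Amdhd1 at ZT18 (2.05, 0.185). The interaction with time called 0 members by edgeR (0% of genes), with Sdsl, Aadat and Kynu at unadjusted p of 0.000159, 0.0263 and 0.0444, and DESeq2 called 1 member. The fourth by p was Bckdhb (0.0577). The fit without the 11 numbers called 0 members by edgeR and by DESeq2, and none had an unadjusted p under 0.05.

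Rhythm in flox kidney was called for 0 members by edgeR, where 5.07% of genes were, and DESeq2 picked out 1. An unadjusted p under 0.05 was reached by 4 members, and the share of all genes at that threshold is not given. By p the first were Gldc (amplitude 0.95, peak ZT 13.4, adjusted p = 0.0744), Gpt (0.61, ZT 12.1), Got1 (0.26, ZT 11.2), Prodh (0.49, ZT 11.7), Cps1 (2.17, from a few reads), Aadat (0.40, ZT 6.37), Aldh4a1 (0.27, ZT 12.4) and Bckdhb (0.22, ZT 9.73). In iKO kidney Got1 was the 1 member called, where 4.22% of genes were, with an amplitude of 0.38 (SE 0.09), a peak at ZT 13.5 and an adjusted p of 0.0365 by edgeR. Its iKO libraries had 135 to 220 CPM at ZT14 and 77.1 to 114 at ZT22. These are values the fit already used, so the gap adds no support for the rhythm. Of them, iKO ZT14 numbers 1 and 2 and all 3 libraries of ZT22 are among the 11 numbers. The call was lost in 6 of the fits with 1 library left out, namely without iKO ZT10 number 1, iKO ZT14 numbers 1 or 2, or any one of the 3 iKO libraries of ZT22. Gldc (0.81), Gpt (0.57), Amdhd1 (0.74), Aadat (0.40), Kmo (0.37), Kynu (0.54) and Bckdha (0.55) followed in iKO without a call.

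Without the 11 numbers Gldc and Hpd were called in flox kidney, where 9.61% of genes were, and no member was called by edgeR in iKO kidney, where 0.0737% of genes were and 3 members had an unadjusted p under 0.05. The difference in rhythm between genotypes called 0 members by edgeR (0% of genes) and by DESeq2. At an unadjusted p under 0.05 stood Aadat (0.0110, peak ZT 6.37 in flox and ZT 21.1 in iKO), Cps1 (0.0139) and Bckdhb (0.0236), and Got1 followed (0.238). In the fit with the 11 numbers left out 0 were called by edgeR, and 2 members had an unadjusted p under 0.05.

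In WAT no comparison of genotype, time or rhythm called a member by edgeR, and 0% of the 21402 genes tested were called in each. The tests covered 35 members, without Otc, Aadat, Agxt and Prodh2. The average effect had 4 members at an unadjusted p under 0.05, all higher in iKO, namely Haao (1.004), Hgd (1.70), Gls2 (0.70) and Kmo (0.71), each with an adjusted p of 0.99997, and DESeq2 called 0 members. These 4 are 4 of 35 members, where 3.76% of all genes had such a p. No member was called by edgeR or DESeq2 without the 11 numbers. Haao then stood at 0.69, Hgd at 0.02, Gls2 at 0.87 and Kmo at 0.54, none of them at an unadjusted p under 0.05, and Ass1 alone reached it (-1.72). Haao had 0.173 to 3.72 CPM in flox WAT and 0.447 to 6.14 in iKO, a level set by few reads per library, and its groups overlapped. The mean of 8 hepatocyte markers in WAT ran to 1.88 in flox and to 4.73 in iKO, and its part in these values was not tested. At single times the smallest p belonged to Hgd at ZT6 (6.94, from 155 counts in 36 WAT libraries), Kmo at ZT10 (2.58), Haao at ZT10 (2.36) and Sdsl at ZT18 (2.24). DESeq2 called 0 pairs, and 9 pairs had an unadjusted p under 0.05. These are 4.29% of the member and time pairs, against 3.57% of all pairs, and without the 11 numbers 7 of 175 pairs, where 3.09% of all pairs were. The interaction with time had 0 members at that level (first Hgd, Arg1, Kmo and Kynu) and DESeq2 called 0.

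Rhythm in flox WAT had 4 members at an unadjusted p under 0.05, Arg1 (amplitude 2.34), Hgd (3.61), Kmo (1.31) and Fah (0.87), followed by Tat, Tdo2, Bckdhb and Dbt. Over the 36 WAT libraries Hgd had 155 counts in all, with 15 libraries at 0, Arg1 had 460 and Kmo 1115. Their amplitudes rest on few reads, while Fah had 59859 counts. The share of all genes at that unadjusted threshold is not given for the counts of members here. In iKO WAT there was 1, Tat (2.39, from 120 counts in 36 WAT libraries, 11 at 0), followed by Tdo2, Ftcd, Sdsl, Cps1, Gls2, Uroc1 and Haao. The difference in rhythm had 3, Arg1, Hgd and Kmo, followed by Uroc1. DESeq2 called 0 members in each of these. With those 11 numbers left out edgeR called 0 members in each, and 7, 1 and 5 members had an unadjusted p under 0.05 in flox, in iKO and for the difference in rhythm.

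Whether the genotype difference itself differed between tissues was tested in the fit of all 3 tissues. Between liver and WAT 2 members were called, where 0.592% of genes were, Haao with a difference of -2.07 (SE 0.48, adjusted p = 0.0256 by edgeR) and Gls2 with -1.64 (SE 0.41, adjusted p = 0.0412 by edgeR). In WAT both genes were near 0, with medians of 0.765 CPM in flox and 1.81 in iKO for Haao and of 0.447 and 0.560 for Gls2. Neither was called without the 11 numbers or without the 2 numbers with Xist. Between liver and kidney 0 members were called by edgeR and by DESeq2, where 0.395% of genes were, with 3 at an unadjusted p under 0.05. Between kidney and WAT 0 were called by both, where 0.0132% of genes were, with 3 at an unadjusted p under 0.05.

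The same test was read for 74 other genes of amino acid metabolism and its control, of which 73 were tested in liver. In liver 2 of the 73 were called, near the 2.64% called of all genes tested. Cebpb, a transcription factor of the acute-phase and gluconeogenic response, rose by 0.89 (SE 0.18, adjusted p = 0.0107 by edgeR). Asrgl1, an asparaginase, fell by 0.61 (SE 0.15, adjusted p = 0.0256 by edgeR). In kidney 0 of 72 (0.164% of all genes) and in WAT 0 of 71 (0% of all genes) were called by edgeR. In liver without the 11 numbers Cebpb stood at 0.49. The 8 with the smallest p were the mitochondrial glutamate carrier Slc25a22 (0.86), the glutamate transporter Slc1a2 (0.86), Ppm1k, the phosphatase that activates the branched-chain dehydrogenase (0.80), the transcription factor Creb3l3 (0.64), the aromatic amino acid transporter Slc16a10 (0.63), Qprt, which follows Haao on the path to NAD (-0.67), Asrgl1 (-0.49) and the glutamine transporter Slc38a3 (-0.48). In kidney without the 11 numbers the smallest p belonged to Slc25a22 (0.69) and Amt, a subunit of the glycine cleavage system (0.44).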

How the data were processed

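The deposited table holds whole-number read counts per gene that the authors made, 1 column a library. Per the submitters' processing notes, featureCounts 1.5.0-p3, HISAT2 2.0.4 and DESeq2 1.16.1 were used with GRCm38. Not given in the sources used here are their settings, including strand. Trizol was used for extraction and reads were 150 bp long, per the labels' protocols. The gene positions in the table are those of another build than GRCm38. All 39 members have the chromosome, strand and span that GENCODE M21 gives, but 0 of 39 have the same start, so positions printed here come from GENCODE M21 or RefSeq (GRCm38).

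Counts were tested in R 4.3.3 with edgeR 4.0.16 (filterByExpr, TMM scaling, robust quasi-likelihood fit), each tissue alone with 12 groups of 3 libraries, and for differences between tissues with 36 groups in 1 fit. Calls were made at an adjusted p (Benjamini-Hochberg, over every gene tested) under 0.05. Counts at an unadjusted p under 0.05 or by DESeq2, without that test's share of all genes beside them, describe the fit and not the members. CPM are scaled by TMM. Fold changes are log2, iKO minus flox. Rhythm was fitted per genotype as cosine and sine of a 24 h period. The scripts were tested on simulated data. Alternatives were DESeq2 1.42.0, its size factors, no filter, a block for the library number, time as a factor, and 1 library left out at a time. After the data were seen, fits without 2 sets of library numbers were added (a liver cell cycle mean above 2, or liver Xist above 3, both log2 CPM with a prior count of 2), the first also in DESeq2 for genotype effects but not rhythms.

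The members, lists and tests were chosen with earlier results of these data known. Named genes were every called member, the members with the smallest p (10 in liver, 4 in kidney and WAT, 4 per tissue for single times and interactions, up to 8 for rhythm), up to 5 of the largest differences each way between tissues, and up to 8 called genes of the other list. Members described by role beside these were chosen after their values were seen. No pair of libraries of a group was a duplicate (lowest chi-square per degree of freedom 10.5). Library totals of 13875600 to 24414800 counts leave members at a few counts, such as Otc in kidney, without a usable fold. Read counts are not independent molecules, so precision here is the spread between libraries.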

Additional observations from a re-analysis of the deposited data

Results flagged for a closer look

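The genotype difference of 2 members itself differed between liver and WAT by a test of that difference over all genes. Haao stood at -2.07 (log2, liver minus WAT, SE 0.48, adjusted p = 0.0256 by edgeR), with a difference of -1.09 in liver and 1.004 in WAT. Its median was 829 CPM in flox and 401 in iKO liver, and in WAT the medians were 0.765 and 1.81 CPM. Gls2 stood at -1.64 (SE 0.41, adjusted p = 0.0412 by edgeR), with -0.97 in liver and 0.70 in WAT, where its medians were 0.447 and 0.560 CPM. Without the 11 library numbers that stood apart Haao stood at -1.20 (adjusted p = 0.199 by edgeR) and Gls2 at -1.51 (0.197), and without the 2 numbers with Xist at -1.86 (0.0882) and -1.73 (0.0641). Over all alternatives the adjusted p ran from 0.00114 to 0.857 for Haao and from 0.00401 to 0.823 for Gls2.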

How the results depend on the processing

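The numbers of members called moved with the processing. The share of all genes called in each setting is not given beside these counts, so they describe the setting and not the members. No alternative run reversed the 10 members with the smallest p in liver, Aadat in kidney, or the members named for the largest differences between tissues. They were picked from the same libraries, so kept signs are weak support. In liver 11 of the 39 members changed sign without the 11 numbers (Aadat, Agxt, Aldh4a1, Cps1, Glud1, Got1, Gpt2, Kynu, Prodh2, Tat and Tdo2). None of these members was called in liver with all libraries. The average effect in liver, 2 members, became 0 without a filter, 6 with the library number as a replicate block, 8 in DESeq2, 7 without the 11 numbers, 9 in DESeq2 without them, 0 without the 2 Xist numbers and 0 to 13 with 1 library left out. In kidney it was 1, and became 2 in DESeq2, 0 without the 11 numbers and 1 to 2 with 1 library left out. Single times in liver went from 0 to 1 in DESeq2, 1 without the 11 numbers, 9 in DESeq2 without them and 0 to 9 with 1 library left out, and in kidney from 0 to 3 in DESeq2 and 0 to 5. The interaction went from 0 to 1 in DESeq2 without the 11 numbers in liver and in DESeq2 in kidney. Rhythm in flox liver went from 1 to 6 without the 11 numbers and 0 to 1 with 1 library left out. Rhythm in iKO liver went from 0 to 2 with time as a factor, 1 in DESeq2 and 6 without the 11 numbers. Rhythm in flox kidney went from 0 to 2 with time as a factor, 1 in DESeq2, 2 without the 11 numbers, 1 without the Xist numbers and 0 to 1 with 1 library left out. Rhythm in iKO kidney went from 1 to 0 without a filter, 14 with time as a factor, 0 without the 11 numbers and 0 to 1 with 1 library left out. The 2 members whose effect differed between liver and WAT became 0 without a filter, 1 with the block, 6 in DESeq2, 0 without the 11 numbers, 0 without the Xist numbers and 0 to 8 with the libraries of 1 number left out, where kidney against WAT gave 0 to 1. The cause was not tested. Between tissues of flox mice the counts were 34 to 34, 36 to 37 and 27 to 28 with 1 number left out (liver against kidney, liver against WAT, kidney against WAT).

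Deviations of same-numbered flox and iKO libraries correlated above 0.1 in 7 of 18 liver pairs, 8 in kidney and 9 in WAT. Between tissues this held in 17 of 36 pairs for liver and kidney, 6 for liver and WAT and 8 for kidney and WAT. With 3 libraries a group these values cannot decide whether a number pairs samples. The filter on low counts left 6 members in kidney and 4 in WAT untested. Single-time contrasts rest on 3 libraries a group, or 1 where libraries were left out, which is then assumed to vary like the others.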
